A study of Mus musculus with 6 samples.

Results

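The proteasome genes described here are the 50 of 50600 genes in the count table whose symbol is Psma, Psmb, Psmc, Psmd, Psme, Psmf or Psmg followed by a number, together with Pomp and Adrm1. They were compared between islet macrophages and fat macrophages of 12-week-old C57BL/6J males on a chow diet. In both tissues the macrophages were sorted alive (DAPI-negative) by the surface proteins CD45, F4/80 and CD64. The islet group came from pancreatic islets and the fat group from epididymal white adipose tissue, the depot beside the testis, and each had 3 libraries, numbered 2, 4 and 6 in both tissues. The labels name no agent and no altered allele in either group, and do not say whether a library holds 1 animal or a pool. Of the 50 genes, 48 had enough counts to be tested.

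The proteasome is the protease that degrades ubiquitin-tagged proteins in the cytosol and nucleus. Its 20S core is a barrel of outer alpha rings, which gate the entrance, and inner beta rings, which hold the cutting sites of Psmb5, Psmb6 and Psmb7. The 19S cap has a base that unfolds the substrate and a lid that removes the ubiquitin. Interferon leads cells to make Psmb8, Psmb9 and Psmb10 in place of Psmb5, Psmb6 and Psmb7 in newly assembled cores, and to make Psme1 and Psme2, the subunits of the PA28 cap. Cores with the induced subunits are called immunoproteasomes and yield peptides suited to presentation on MHC class I, and macrophages carry both forms.

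Total counts per library ranged from 4089980 to 9235591, and a count of 0 allows 0.404 to 0.860 CPM (counts scaled to library size) in islet libraries and 0.284 to 0.398 CPM in fat libraries, counting error only. The genes of the surface proteins used for sorting had counts in every library, with log2 differences (islet minus fat) of 0.86 for Ptprc (CD45), 0.58 for Adgre1 (F4/80) and 0.45 for Fcgr1 (CD64) and edgeR quasi-likelihood adjusted p = 0.0639, 0.265 and 0.264. Ptprc was called higher in islet macrophages by DESeq2 (adjusted p = 0.0138), by limma voom (0.0393) and without islet library 6 (0.00475), Adgre1 without islet library 6 (0.0261), and Fcgr1 without islet libraries 2 and 4 (0.0281). The list of 8 macrophage markers summed to 0.510% to 0.653% of counts in islet and 0.740% to 0.891% in fat libraries. Its genes ran both ways. Log2 differences were -3.05 for Mertk, -1.33 for Lyz2 and 4.71 for Cx3cr1 (edgeR adjusted p = 0.000586, 0.0237 and 0.000202). These genes were named after their values were seen. A list of 10 heat shock genes took 10.27%, 11.25% and 0.845% of counts in islet libraries 2, 4 and 6, against 0.268% to 0.297% in fat libraries. All 12 beta cell markers were detected in islet libraries, where they summed to 0.297% to 0.674% of counts, against 0.000118% to 0.000617% in fat libraries, in which G6pc2, Nkx6-1, Pcsk1, Pdx1, Slc2a2, Slc30a8 and Ucn3 were at 0. The 7 dendritic cell markers summed to 0.0158% to 0.0264% in islet and 0.00587% to 0.00810% in fat libraries. Most of that sum was Siglech (124 to 266 CPM in islet and 23.4 to 38.3 CPM in fat libraries), while Zbtb46 fell (0 to 3.10 CPM in islet and 20.9 to 25.3 CPM in fat libraries, edgeR adjusted p = 0.00834), both named after their values were seen. The 6 B cell markers summed to 0.00407% to 0.0189% in islet and 0.0191% to 0.0269% in fat libraries. Ighm made up most of these sums (36.8 to 216 CPM in islet and 162 to 240 CPM in fat libraries). Cd79b had 1.08 to 2.87 CPM in islet and 2.00 to 4.38 CPM in fat libraries, and both were named after their values were seen. Markers of alpha, delta and PP cells took 0.0430% to 0.0700% in islet and 0.00128% to 0.00152% in fat libraries. The fat sum was mostly Hhex (16.9 to 20.5 CPM in islet and 11.2 to 13.8 CPM in fat libraries). Gcg, Sst, Ppy and Pyy were at 0 in fat libraries, all named after their values were seen. Markers of stromal cells ran the other way, with fibroblast and mesothelial markers at 5.02e-05% to 0.000549% in islet and 0.00975% to 0.0440% in fat libraries. Adipocyte markers took 0.00120% to 0.00233% in islet and 0.00902% to 0.0325% in fat libraries. The islet sum was mostly Lipe (10.8 to 27.6 CPM in islet and 23.6 to 36.2 CPM in fat libraries). Adipoq, Cfd, Cidec, Lep, Pck1, Plin1 and Retn were at 0 in islet libraries, all named after their values were seen. Endothelial markers took 0.000636% to 0.00283% in islet and 0.00339% to 0.0197% in fat libraries. The part of heat shock and of RNA from other cells in the results below was not tested. The values given without islet libraries 2 and 4 are no such test. Islet library 6, left alone there, still held 0.845% heat shock and 0.297% beta cell counts. In these bulk samples fewer cells of a type and less RNA per cell cannot be told apart.

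Most proteasome genes had a higher fitted level in islet than in fat macrophages, and the genes past the threshold were mostly those of the immunoproteasome. Of 48 tested members, 6 rose in islet macrophages (Psme1, Psmb8, Psme2, Psmb10, Psmd10 and Psmd1), or 12.5%, against 8.97% of all 12152 tested genes, so the share over the whole complex was near the background. None fell past the threshold by edgeR, against 10.5% of all tested genes called lower, and none by DESeq2 or limma voom. None was lower at an unadjusted edgeR p under 0.05. The share of all tested genes at that unadjusted p was not counted, here or for the roles and lists below. DESeq2 called 7 members higher, against 11.8% of all tested genes, and edgeR with the replicate number as a block 5, against 7.27%. The fitted log2 difference, islet minus fat, was above 0 in 44 members (91.7%, against 50.2% of all tested genes), with a median of 0.63 over the members and 0.01 over all tested genes. Every islet library was above every fat library in 24 of 48 members, against 18.2% of all tested genes. In 1 member, Psmg2, every islet library was below every fat library, against 22.3% of all tested genes. All members together took 0.242%, 0.267% and 0.374% of counts in islet libraries 2, 4 and 6, against 0.197%, 0.234% and 0.221% in fat libraries 2, 4 and 6.

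Among the 5 immunoproteasome genes (Psmb8, Psmb9, Psmb10, Psme1 and Psme2), 4 rose, or 80.0%, against 8.97% of all tested genes. The median log2 difference was 1.12, and every islet library was above every fat library for all 5, against 18.2% of all tested genes. Among the 43 other tested members 2 rose, or 4.65%, below the 8.97% of all tested genes, and the median log2 difference was 0.56. Psme1, the alpha subunit of the PA28 cap, had 305, 419 and 299.8 CPM in islet libraries 2, 4 and 6, against 86.2, 113 and 95.3 CPM in fat libraries 2, 4 and 6. The lowest islet library thus held more than 2 times the CPM of the highest fat library. The fitted log2 difference was 1.80 ± 0.26 (SE), a 3.47-fold higher level in islet macrophages, with an edgeR adjusted p = 0.00199, the smallest among the members. It was also the member with the highest level per kilobase of exon in both tissues, at 154 CPM per kilobase in islet and 44.4 CPM per kilobase in fat macrophages on average. The call for Psme1 held under all 15 alternatives, with a log2 difference between 1.53 and 1.87.

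Psme2, the beta subunit that assembles with Psme1, had 75.2, 84 and 115 CPM in islet libraries 2, 4 and 6, against 38.8, 47.8 and 45.1 CPM in fat libraries 2, 4 and 6. The groups did not overlap, and the log2 difference was 1.06 ± 0.25 (SE), or 2.09-fold (edgeR adjusted p = 0.0185). An annotated copy, Psme2b, shares 99.37% identity with 82.5% of the Psme2 transcript, and the counting could divide reads between them. Summed, Psme2 and Psme2b had 82.9, 97.2 and 123 CPM in islet libraries, against 56.2, 60.8 and 58.0 CPM in fat libraries, again without overlap. Without any 1 of the 3 fat libraries the adjusted p of Psme2 was 0.0812 to 0.116, with a log2 difference of 0.96 to 1.07.

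Psmb8 (LMP7), the induced chymotrypsin-like subunit, had 161, 197 and 152 CPM in islet libraries 2, 4 and 6, against 56.1, 81.6 and 81.9 CPM in fat libraries 2, 4 and 6. The log2 difference was 1.22 ± 0.25 (SE), a 2.32-fold higher level in islet macrophages (edgeR adjusted p = 0.0103), and the adjusted p was 0.0751 without fat library 2 and 0.0581 without fat library 4. Psmb10 (MECL-1), the induced trypsin-like subunit, had 38.5, 45.9 and 30.6 CPM in islet libraries, against 17.6, 23.7 and 14.6 CPM in fat libraries. Its groups did not overlap either, but its 2.05-fold difference (log2 1.04 ± 0.30 SE) was close to the threshold (edgeR adjusted p = 0.0411). It lost the call with upper-quartile factors (adjusted p = 0.0515), with no filter on low counts (0.0509), without islet libraries 2 and 4 (0.131) and without each single library other than islet library 6 (0.0741 to 0.174).

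Psmb9 (LMP2), the induced caspase-like subunit, was the immunoproteasome gene that did not pass. It had 13.7, 38.4 and 14.8 CPM in islet libraries 2, 4 and 6, against 10.1, 11.8 and 8.71 CPM in fat libraries 2, 4 and 6. The groups did not overlap, but islet library 4 stood far above the other islet libraries, and the log2 difference of 1.12 ± 0.46 (SE) had an edgeR adjusted p = 0.127. Without islet library 4 the log2 difference was 0.48, and without islet library 6 it was 1.33 with an adjusted p = 0.0460. Exons of Psmb9 overlap those of Tap1 on the opposite strand over 212 bases, 5.8% of its exonic length, and the strand setting of the counting was not given in the sources used here.

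**Figure D1:**
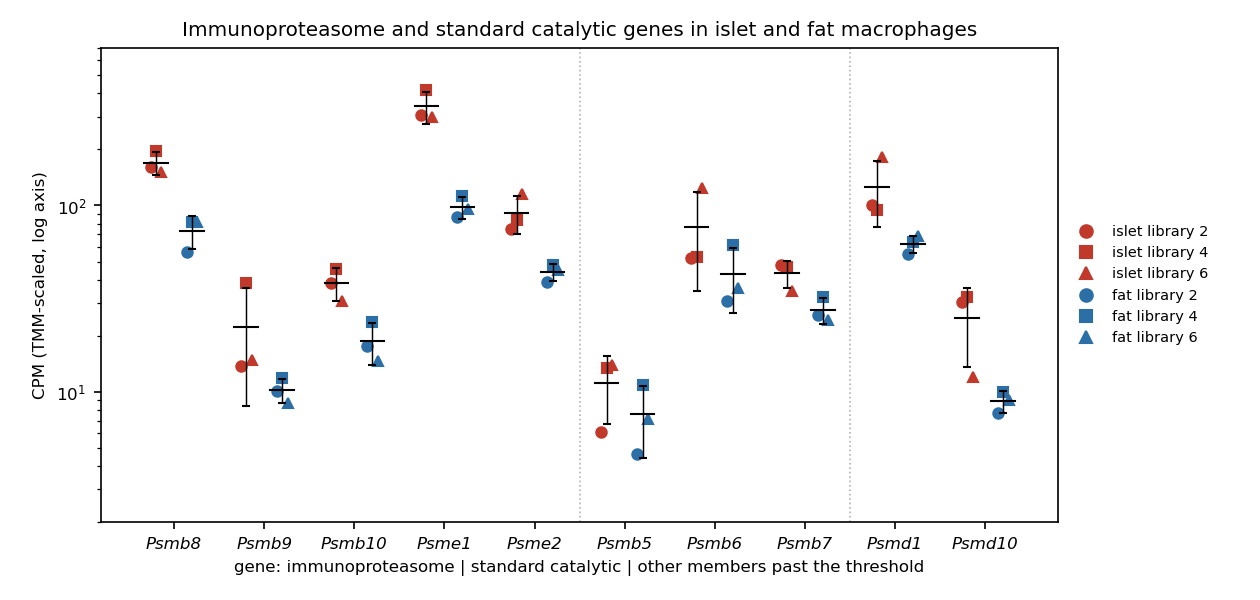
CPM (log axis, scaled by TMM) of the 5 immunoproteasome genes, the 3 standard catalytic genes and the 2 other members past the threshold, in islet libraries (red) and fat libraries (blue). Points are libraries, horizontal bars are means and whiskers are SD over 3 libraries. Islet libraries lie above all fat libraries for each immunoproteasome gene, and the groups overlap for Psmb5 and Psmb6.

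Of the immunoproteasome genes, 4 lie in pairs, while Psmb10 lies apart on chromosome 8. In GRCm38, Psmb9 (chr17:34181987-34187764, minus strand) and Psmb8 (chr17:34197721-34201454, plus strand) flank Tap1, a subunit of the transporter that carries proteasome-made peptides to MHC class I. Psme1 (chr14:55578123-55581529, plus strand) and Psme2 (chr14:55587441-55591113, minus strand) are neighbours that point towards each other. Their promoter windows, 250 bases before to 50 bases after an annotated RefSeq start on GRCm38.p6, are shown because 3 of these 4 genes rose and their interferon response is known from other cells. Capitals mark any match on either strand to a gamma-activated site (TTCNNNGAA), an interferon-stimulated response pattern (GAAANNGAAA) or an antioxidant response core (TGANNNNGC), and each sequence reads in the direction of its gene.
Psme1, chr14:55578244-55578543, plus strand: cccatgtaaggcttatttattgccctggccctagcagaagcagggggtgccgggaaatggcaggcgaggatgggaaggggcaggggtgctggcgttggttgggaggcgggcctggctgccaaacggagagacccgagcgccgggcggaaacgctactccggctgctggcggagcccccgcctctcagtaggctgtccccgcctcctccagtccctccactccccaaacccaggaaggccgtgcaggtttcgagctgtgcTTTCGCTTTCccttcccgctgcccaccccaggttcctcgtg
Psme2, chr14:55590972-55591271, minus strand: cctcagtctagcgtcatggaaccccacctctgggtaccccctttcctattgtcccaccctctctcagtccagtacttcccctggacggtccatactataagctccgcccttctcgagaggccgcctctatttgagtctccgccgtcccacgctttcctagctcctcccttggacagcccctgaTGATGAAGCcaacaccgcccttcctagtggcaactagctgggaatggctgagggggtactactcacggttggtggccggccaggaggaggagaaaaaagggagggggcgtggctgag
Psmb8, chr17:34197945-34198244, plus strand: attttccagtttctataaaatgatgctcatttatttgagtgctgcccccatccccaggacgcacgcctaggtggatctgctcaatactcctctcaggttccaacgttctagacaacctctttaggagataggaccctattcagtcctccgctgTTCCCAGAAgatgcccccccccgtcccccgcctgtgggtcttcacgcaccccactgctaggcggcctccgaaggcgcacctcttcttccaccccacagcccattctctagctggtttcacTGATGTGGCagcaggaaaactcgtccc
Psmb9, chr17:34187281-34187580, minus strand: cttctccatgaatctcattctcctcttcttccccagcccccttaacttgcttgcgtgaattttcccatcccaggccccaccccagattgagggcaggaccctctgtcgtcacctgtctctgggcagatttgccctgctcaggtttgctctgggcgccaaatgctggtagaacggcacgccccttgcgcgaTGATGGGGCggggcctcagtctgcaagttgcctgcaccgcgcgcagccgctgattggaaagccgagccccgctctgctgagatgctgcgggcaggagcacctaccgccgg
RefSeq holds another start for Psme2 (window chr14:55591052-55591351), in which the same core lies 13 bases after the start rather than 67 before it. The Psme1 window held the interferon-stimulated pattern, read on the opposite strand, 9 bases after the start. Psmb8 held the gamma-activated letters 97 bases before its start, and Psmb8, Psme2 and Psmb9 each held an antioxidant response core. The Psmb9 window shares 275 bases with that of Tap1, which starts 226 bases away in the other direction.

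Over all members, 42 of 50 had a RefSeq window, with 45 windows in all. The interferon-stimulated pattern was in 5 of the 45 (11.1%), those of Psmb3, Psmd4, Psmd9, Psme1 and Psmg4, against 3.44% of all 32851 windows. The gamma-activated letters were in 3 (6.67%), those of Psmb8, Psmd2 and Psmg1, against 8.30% of all windows, and the antioxidant response core was in 26 (57.8%), against 41.3%. No member window held a heat shock element written as GAANNTTCNNGAA, which 0.603% of all windows held. The patterns can overlap each other, and a match is a run of letters and not a shown binding site.

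Of the standard catalytic genes, which the induced subunits replace, 0 of 3 passed the threshold in edgeR, DESeq2 or limma voom, and 1 (Psmb7) had an unadjusted edgeR p under 0.05. Psmb7, the trypsin-like subunit, had 48, 47.0 and 34.8 CPM in islet libraries 2, 4 and 6, against 25.8, 32.2 and 24.2 CPM in fat libraries 2, 4 and 6. Its groups did not overlap, with a log2 difference of 0.66 ± 0.26 (SE, edgeR adjusted p = 0.118). An overlap of 405 bases with Nek6 on the opposite strand covers 11.8% of its exonic length. Psmb6, the caspase-like subunit, had 52.0, 52.8 and 125 CPM in islet libraries, against 30.8, 61.6 and 36.0 CPM in fat libraries. Here islet library 6 stood apart, the groups overlapped and the log2 difference was 0.84 ± 0.42 (SE, edgeR adjusted p = 0.201). Psmb5, the chymotrypsin-like subunit, was low throughout, with 6.05, 13.5 and 13.9 CPM in islet libraries and 4.63, 10.9 and 7.18 CPM in fat libraries. Its log2 difference was 0.56 ± 0.50 (SE, edgeR adjusted p = 0.488). The standard subunits therefore had fitted differences between 0.56 and 0.84, and the induced ones between 1.04 and 1.22.

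How the induced subunits stood against the standard ones is given by the ratio of each pair, in CPM per exonic kilobase, within each library. Psmb8 over Psmb5 was 7.08, 3.89 and 2.91 in islet libraries 2, 4 and 6, against 3.22, 1.99 and 3.03 in fat libraries 2, 4 and 6. Psmb9 over Psmb6 was 0.135, 0.373 and 0.0608 in islet libraries, against 0.168, 0.0981 and 0.124 in fat libraries. Psmb10 over Psmb7 was 1.61, 1.96 and 1.77 in islet libraries, against 1.37, 1.48 and 1.21 in fat libraries. Only for Psmb10 over Psmb7 was every islet library above every fat library, with a log2 difference of 0.40, and the exact two-sided permutation p = 0.1 is the smallest that 3 against 3 allows (0.3 adjusted over the 3 pairs). The log2 differences of Psmb8 over Psmb5 and Psmb9 over Psmb6 were 0.68 and 0.19, with exact permutation p = 0.3 and 0.8, or 0.45 and 0.8 adjusted over the pairs. For Psmb9 over Psmb6 the direction turned without islet library 4, at -0.486. The libraries overlapped between tissues for Psmb8 over Psmb5 and Psmb9 over Psmb6, and for Psmb10 over Psmb7 the exact permutation test could not go below 0.1. These ratios therefore neither show nor exclude a shift of the catalytic set towards the induced subunits.

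**Figure D2:**
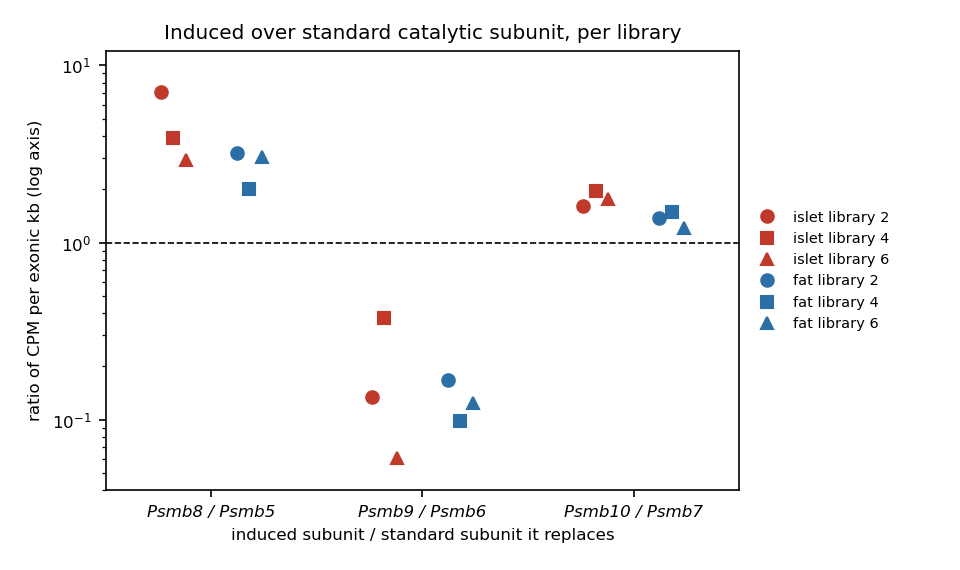
Ratio of each induced catalytic subunit to the standard subunit it replaces, in CPM per exonic kilobase (log axis), per library. Islet libraries (red) stand left of fat libraries (blue). The islet libraries lie above all fat libraries for Psmb10 over Psmb7, and both groups are spread over each other for the other pairs.

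The induced share of the summed level per kilobase of the 6 catalytic genes was 60.4%, 62.7% and 42.0% in islet libraries 2, 4 and 6, against 50.4%, 43.1% and 50.6% in fat libraries 2, 4 and 6. Islet libraries 2 and 4 were above all fat libraries and islet library 6 was below them. In that library the standard subunits summed to 92.2 CPM per kilobase, against 48.5 and 56.9 in islet libraries 2 and 4, while the induced ones summed to 66.9, against 74.0 and 95.7. Exonic length counts every annotated exon, so a level per kilobase is lowered for a gene with long minor transcripts. On this scale Psmb8 averaged 50.3 CPM per kilobase in islet and 21.7 in fat macrophages, and Psmb9 6.10 in islet and 2.79 in fat macrophages.

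No other gene of the 20S core passed the threshold. Of the 7 tested alpha ring genes, 0 passed the threshold in edgeR, DESeq2 or limma voom, 1 had an unadjusted edgeR p under 0.05, and the median log2 difference was 0.31. Psma1 had the largest fitted difference of the ring, with 52.8, 56.5 and 44.7 CPM in islet libraries 2, 4 and 6, against 26.4, 39.5 and 31.3 CPM in fat libraries 2, 4 and 6 (log2 0.66 ± 0.26 SE, edgeR adjusted p = 0.109). In Psma1 and Psma2 every islet library was above every fat library (28.6% of the ring, against 18.2% of all tested genes). Psma3, Psma4, Psma5, Psma6 and Psma7 overlapped between tissues. Psma4 and Psma7 had fitted differences below 0, at -0.20 and -0.10 (edgeR adjusted p = 0.696 and 0.854). Summed over the alpha ring, the level was 431, 461 and 529 CPM in islet libraries, against 335, 537 and 369 CPM in fat libraries. Psma8, the alpha subunit of testis proteasomes, was at the edge of detection, with 1, 5 and 0 counts in islet libraries against 5, 6 and 7 counts in fat libraries.

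The 4 beta ring genes without a cutting site, Psmb1, Psmb2, Psmb3 and Psmb4, had log2 differences between 0.15 and 0.77, none past the threshold by edgeR, DESeq2 or limma voom and none at an unadjusted edgeR p under 0.05. Psmb3 was the nearest, with 34.3, 18.4 and 27.2 CPM in islet libraries 2, 4 and 6, against 11.7, 18.4 and 16.7 CPM in fat libraries 2, 4 and 6. Islet library 4 was within the fat range there. Psmb11, the catalytic subunit of the thymus, had no counts in any islet library and 6, 0 and 0 counts in fat libraries 2, 4 and 6.

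In the 19S cap all 18 base and lid genes among the members had a fitted log2 difference above 0, with a median of 0.63. Sem1, a lid subunit that the naming rule leaves out, had a log2 difference of -0.13. Of the 18 members, 11 had every islet library above every fat library, against 18.2% of all tested genes, and 1 rose. That is 5.56%, below the 8.97% of all tested genes called higher. The gene was Psmd1, the large scaffold of the base, with 101, 94.0 and 181 CPM in islet libraries 2, 4 and 6, against 55.2, 63.4 and 68.2 CPM in fat libraries 2, 4 and 6. Its log2 difference was 1.01 ± 0.30 (SE, 2.02-fold, edgeR adjusted p = 0.0451), and it missed the threshold with RLE factors (0.0506) and with protein-coding genes alone (0.0504). It missed it also without islet library 2 (0.0600) and without each fat library (0.122 to 0.20). Psmd2, its partner scaffold, had a log2 difference of 0.61 ± 0.28 (SE, edgeR adjusted p = 0.169).

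Psmd4 and Adrm1 are ubiquitin receptors of the base. Psmd4 had 89.9, 112 and 172 CPM in islet libraries 2, 4 and 6, against 60.5, 80.1 and 67.2 CPM in fat libraries 2, 4 and 6, without overlap (log2 0.85 ± 0.29 SE, edgeR adjusted p = 0.0736). Adrm1 had 64.9, 43.0 and 62.9 CPM in islet libraries, against 28.0, 35.8 and 43.4 CPM in fat libraries. Only islet library 4 was within the fat range (log2 0.67 ± 0.28 SE, edgeR adjusted p = 0.130). The ATPases of the base, Psmc1 to Psmc6, which unfold the substrate, had log2 differences between 0.28 and 0.71 and adjusted p between 0.0788 and 0.562. In Psmc3, Psmc4 and Psmc5 every islet library was above every fat library, against 18.2% of all tested genes. Psmc1, Psmc2 and Psmc6 overlapped between tissues.

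None of the 8 lid genes passed the threshold in edgeR, against 1 (Psmd7) in DESeq2 and 1 (Psmd7) in limma voom, and 4 had an unadjusted edgeR p under 0.05. Psmd7, the partner of the deubiquitinase Psmd14, had 84.1, 60.2 and 166 CPM in islet libraries 2, 4 and 6, against 41.3, 54.8 and 34.7 CPM in fat libraries 2, 4 and 6. The groups did not overlap, islet library 6 was highest, and the log2 difference of 1.25 ± 0.39 (SE) had an edgeR adjusted p = 0.0534, with 0.0236 in DESeq2 and 0.0493 in limma voom. Psmd11, a structural lid subunit, likewise peaked in islet library 6, with 67.9, 48.5 and 132 CPM in islet libraries, against 39.7, 36.8 and 46.5 CPM in fat libraries (log2 1.02 ± 0.37 SE, edgeR adjusted p = 0.0880). Psmd14 itself, which cuts ubiquitin from the substrate, had 47.2, 58.8 and 56.3 CPM in islet libraries and 35.1, 56.8 and 38.8 CPM in fat libraries, and the groups overlapped (log2 0.31 ± 0.27 SE, edgeR adjusted p = 0.468). The structural subunits Psmd3, Psmd6, Psmd8, Psmd12 and Psmd13 had log2 differences between 0.40 and 0.75.

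**Figure D3:**
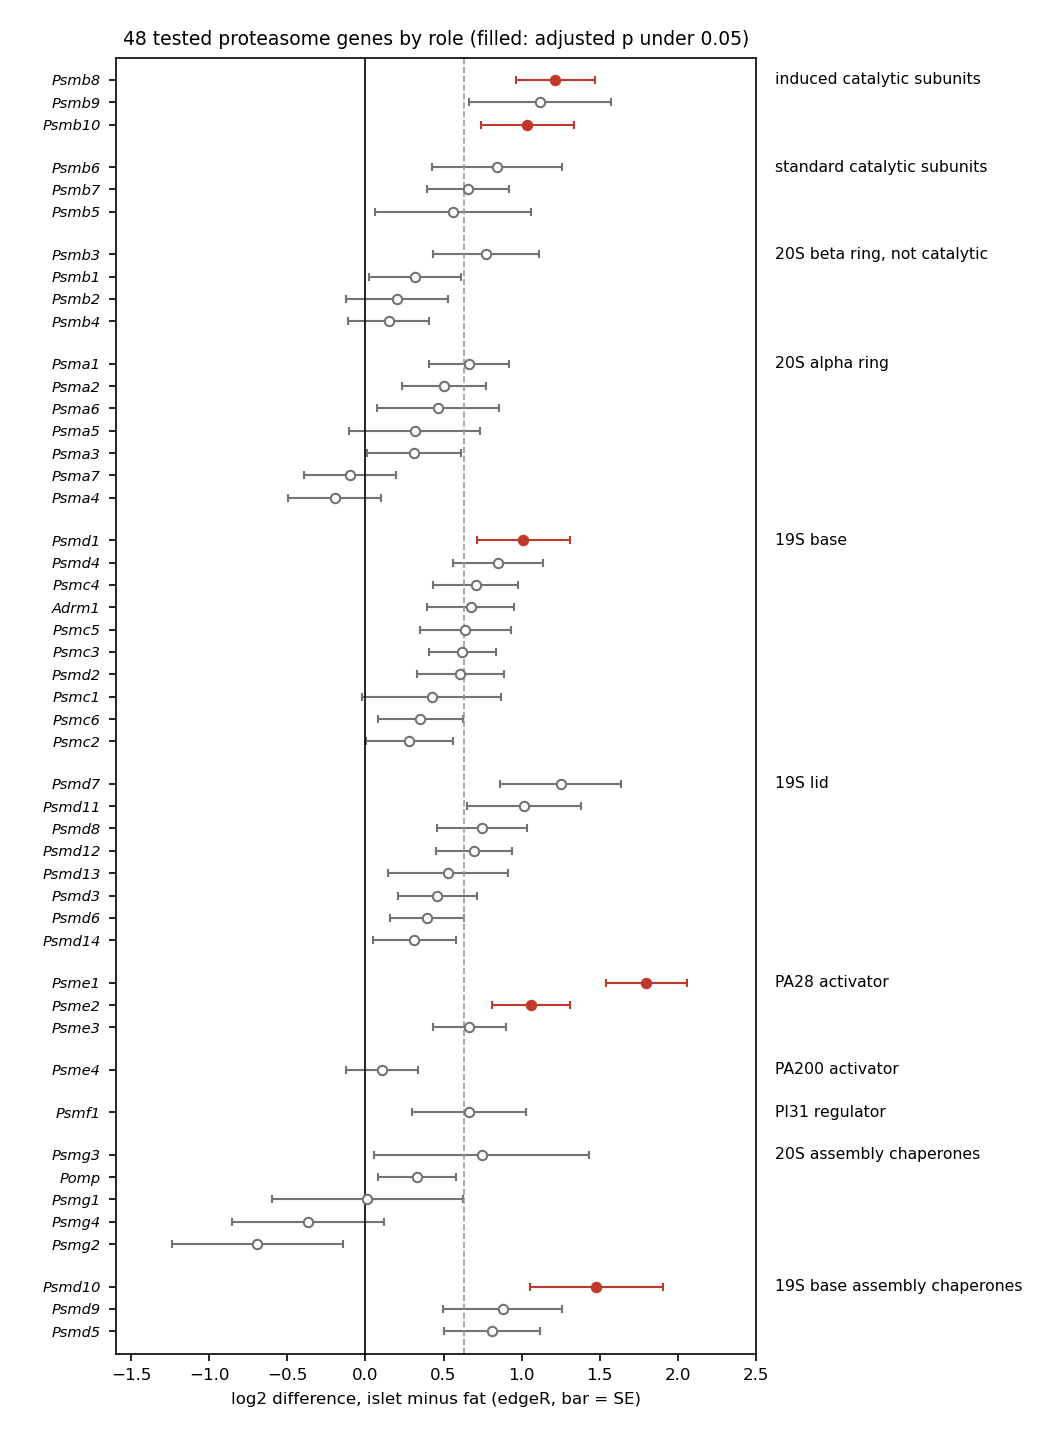
Fitted log2 difference, islet minus fat, of the 48 tested members by role, with bars for the SE. Filled red points have an edgeR adjusted p under 0.05, the solid line marks 0 and the dashed line marks the median over the members, 0.63. The immunoproteasome genes, Psmd10 and Psmd1 lie furthest to the right together with Psmd7 and Psmd11, and 4 members lie left of 0.

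The chaperones of the 19S base, Psmd5, Psmd9 and Psmd10, all had every islet library above every fat library, against 18.2% of all tested genes. Of the 3, 1 rose (33.3%, against 8.97% of all tested genes). Psmd10 (gankyrin) had 30.2, 32.4 and 12.0 CPM in islet libraries 2, 4 and 6, against 7.66, 9.95 and 9.06 CPM in fat libraries 2, 4 and 6. Its log2 difference of 1.48 ± 0.43 (SE, 2.78-fold, edgeR adjusted p = 0.0408) rested on islet libraries 2 and 4. Heat shock genes took 10.27% and 11.25% of counts in those libraries, and a part of heat shock in this difference was not tested. Without those libraries the log2 difference was 0.36 (adjusted p = 0.531). A fit that paired the libraries by number gave 1.37 (adjusted p = 0.0682 with the replicate block). Leaving out islet library 2, islet library 4 or any fat library gave an adjusted p of 0.0796 to 0.169, and limma voom gave 0.0749. Psmd5 and Psmd9 had log2 differences of 0.81 ± 0.31 and 0.88 ± 0.38 (SE, edgeR adjusted p = 0.104 and 0.146).

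Of the 20S assembly chaperones 0 of 5 passed in edgeR, DESeq2 or limma voom, 0 had an unadjusted edgeR p under 0.05, and the median log2 difference was 0.01. Psmg2, which pairs with Psmg1 to start the alpha ring, had 5.64, 5.16 and 2.02 CPM in islet libraries 2, 4 and 6, against 6.52, 7.03 and 6.94 CPM in fat libraries 2, 4 and 6. It was the member with every islet library below every fat library, at a log2 difference of -0.69 ± 0.55 (SE, edgeR adjusted p = 0.434). Psmg4, which pairs with Psmg3, had 11.9, 8.60 and 3.77 CPM in islet libraries and 8.98, 12.6 and 9.53 CPM in fat libraries, with islet library 6 lowest (log2 -0.37 ± 0.49 SE, edgeR adjusted p = 0.652). Pomp, which guides maturation of the core, had 69.1, 61.3 and 54.8 CPM in islet libraries and 39.8, 60.0 and 47.9 CPM in fat libraries (log2 0.33 ± 0.25 SE, edgeR adjusted p = 0.412). Psmg1 and Psmg3 rested on 10 to 47 counts per library.

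The other caps and regulators did not pass the threshold. Psme3, the nuclear PA28 gamma subunit, had 82.4, 66.5 and 57.8 CPM in islet libraries 2, 4 and 6, against 44.3, 42.1 and 44.0 CPM in fat libraries 2, 4 and 6. The groups did not overlap (log2 0.67 ± 0.23 SE, edgeR adjusted p = 0.0814). Psme4, the PA200 cap, had 89.5, 82.0 and 114 CPM in islet libraries and 96.8, 81.6 and 87.3 CPM in fat libraries, with overlap (log2 0.11 ± 0.23 SE, edgeR adjusted p = 0.793). Psmf1, the regulator PI31, had 11.9, 21.5 and 16.6 CPM in islet libraries and 10.7, 8.49 and 12.2 CPM in fat libraries (log2 0.66 ± 0.37 SE, edgeR adjusted p = 0.250).

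Islet libraries differed among themselves more in some members than in others. Islet library 6 held the highest of the islet values in 22 of 48 members (45.8%), against 37.6% of all tested genes, and the lowest in 18. Library 4 was highest in 15 members, against 31.5% of all tested genes, and library 2 in 11, against 30.9%. With upper-quartile factors the order changed, to 19 members for library 6, 20 for library 4 and 9 for library 2. Relative to the geometric mean of islet libraries 2 and 4, library 6 was 3.04 times as high for Psmc1, 2.38 for Psmb6, 2.34 for Psmd7, 2.29 for Psmd11 and 2.00 for Psma5. It was at 0.373 times that mean for Psmg4, 0.374 for Psmg2, 0.383 for Psmd10 and 0.45 for Psma6. The median of this ratio was 1.10 over the members and 1.03 over all genes compared. None of the 3 induced catalytic subunits had its highest islet value in library 6. Psmc1 shows the spread most clearly, with 58.5, 48.2 and 161 CPM in islet libraries 2, 4 and 6, against 51.2, 74.4 and 74.9 CPM in fat libraries 2, 4 and 6. Library 6 alone was above the fat range, and library 4 was below it.

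**Figure D4:**
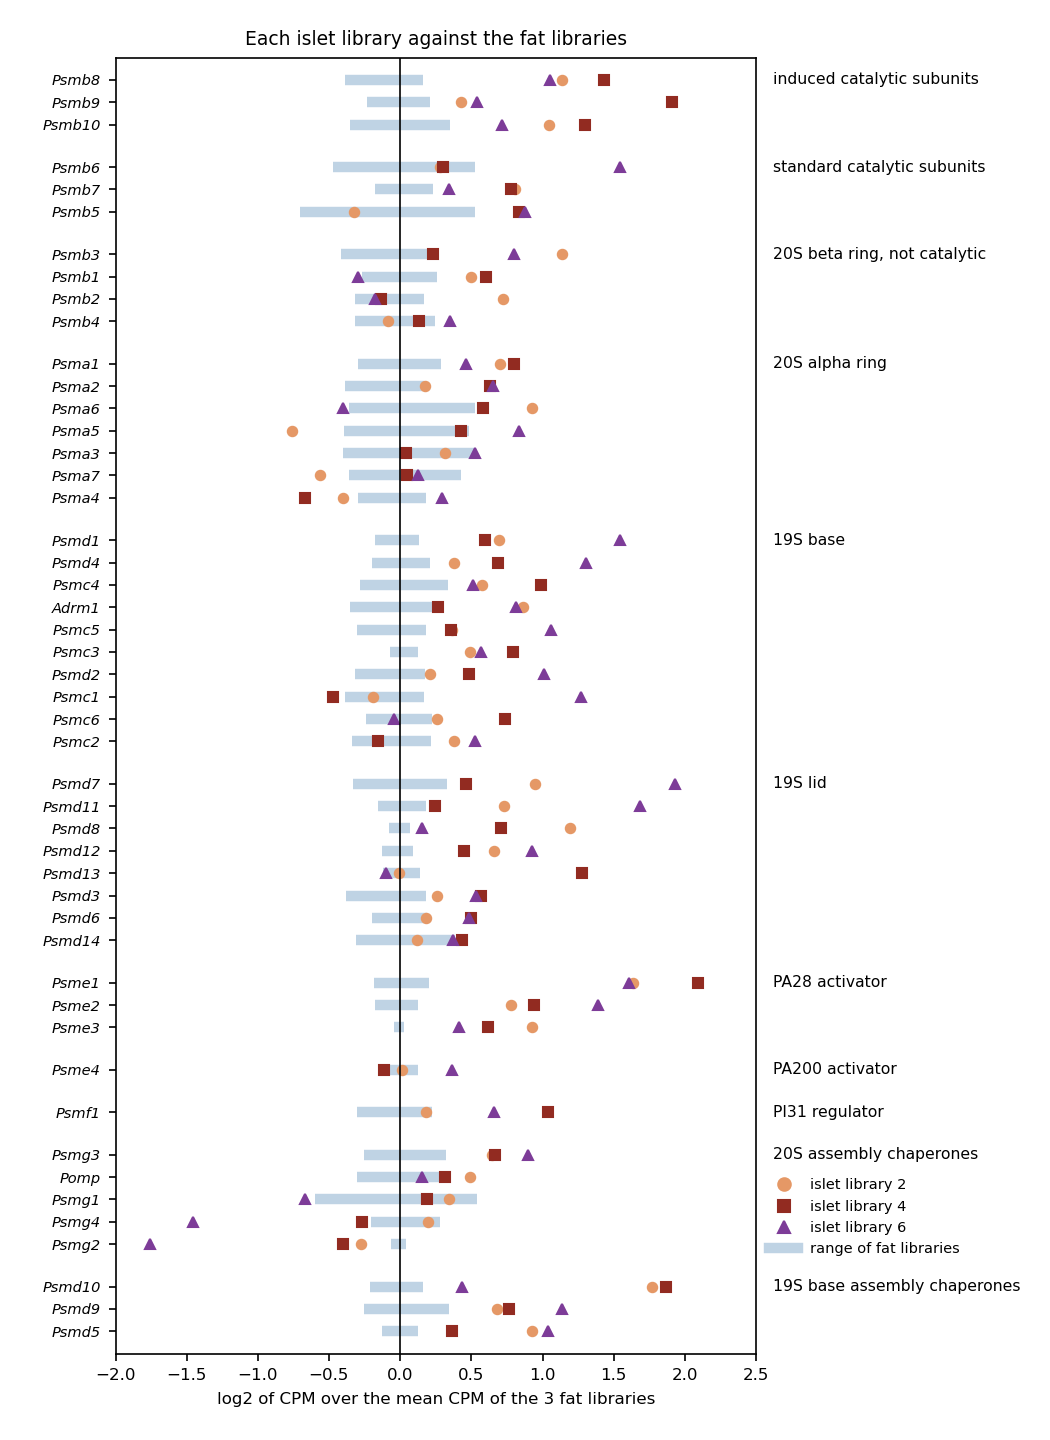
Each islet library (points) as log2 of its CPM over the mean CPM of the 3 fat libraries, for the 48 tested members by role, with the range of the fat libraries as a blue bar. Islet library 6 lies far right for Psmd7, Psmd11, Psmb6, Psmd1 and Psmc1 and far left for Psmg2 and Psmg4, and all 3 islet libraries lie right of the fat range for the 5 immunoproteasome genes.

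Without islet libraries 2 and 4, which leaves islet library 6 alone in its group and assumes that it varies like the fat libraries, 14 members were called higher and 2 lower (Psmg2 and Psmg4), against 14.4% and 20.4% of all genes tested that way. Psme1, Psmb8 and Psme2 were among the 14, Psmb10 and Psmb9 were not, and Psmb6 was called. Without islet library 6, 11 members were called higher, among them all 5 immunoproteasome genes and Psmb7, against 12.7% of all genes tested that way. Leaving out fat library 2 or fat library 4 left 1 call, Psme1, against 3.92% and 3.66% of all genes tested that way, and leaving out fat library 6 left Psme1 and Psmb8, against 4.21%. Without islet library 2 there were 3 calls, Psme1, Psmb8 and Psme2, against 5.80%, and without islet library 4 there were 8, against 10.8%.

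Several members have annotated copies at 95% identity or more over at least 100 bases that cover most of the transcript, so their counts are less certain. These are Psmd2 (98.2% covered), Adrm1 (88.5%), Psmb5 (88.4%), Psme2 (82.5%), Psmc1 (82.0%), Psmb3 (80.7%), Psma4 (76.7%), Psma5 (76.5%) and Psmd11 (52.7%). Apart from Psme2b, with 38 to 56 counts in islet and 98 to 184 counts in fat libraries, these copies held 0 to 47 counts per library. Psmd9 shares 25.5% of its exonic length with a non-coding RNA on the opposite strand, and Psmb8 shares 14.7% with Gm20496, which had 0 to 2 counts per library.

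Genes that act on the induced subunits, or that carry their peptides onward, were counted from lists. Of 15 interferon receptors, kinases and transcription factors, 6 rose, 0 fell, and the median log2 difference was 0.95, against 8.97% higher, 10.5% lower and a median of 0.01 over all tested genes. No gene of this list was lower at an unadjusted edgeR p under 0.05 or called lower by DESeq2 or limma voom. Ifnar2, a chain of the type I interferon receptor, had 178, 112 and 143 CPM in islet libraries 2, 4 and 6, against 46.1, 45.0 and 50.4 CPM in fat libraries 2, 4 and 6. The tissues did not overlap (log2 1.61 ± 0.25 SE, edgeR adjusted p = 0.00264). Irf1, a transcription factor that activates immunoproteasome genes, had 155, 64.2 and 129 CPM in islet libraries, against 172, 145 and 130 CPM in fat libraries (log2 -0.36 ± 0.33 SE, adjusted p = 0.508). Nlrc5, the MHC class I transactivator, had 60.9, 16.0 and 111 CPM in islet libraries, against 53.8, 28.5 and 40.0 CPM in fat libraries. Its islet libraries spanned the fat range (log2 0.63 ± 0.57 SE, edgeR adjusted p = 0.502).

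In the list for peptide supply to MHC class I, 7 of 16 genes rose, 0 fell, and the median log2 difference was 0.84 (8.97% of all tested genes higher). With the replicate block 5 of the 16 were called higher, against 7.27% of all tested genes. There were 0 lower at an unadjusted edgeR p under 0.05, with DESeq2 or with limma voom. Tap1, the neighbour of Psmb9, had 68.7, 67.1 and 85.3 CPM in islet libraries 2, 4 and 6, against 37.7, 30.4 and 44.0 CPM in fat libraries 2, 4 and 6 (log2 0.98 ± 0.25 SE, edgeR adjusted p = 0.0246). Its adjusted p was 0.0619 to 0.156 without any 1 of the fat libraries. Lap3, an aminopeptidase that trims peptides, and B2m, the light chain of MHC class I, had the smallest adjusted p of the list. Lap3 had 82.4, 113 and 43.8 CPM in islet libraries, against 19.2, 19.4 and 20.1 CPM in fat libraries (log2 2.02 ± 0.35 SE, edgeR adjusted p = 0.00489). B2m had 1913, 2108 and 1203 CPM in islet libraries, against 611, 590.3 and 678 CPM in fat libraries (log2 1.47 ± 0.31 SE, edgeR adjusted p = 0.0115), and the adjusted p was 0.0571 to 0.0829 without any 1 fat library. Both were lowest in islet library 6 among the islet libraries and did not overlap between tissues.

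Of 10 regulators of proteasome gene transcription, 1 rose, 0 fell, and the median log2 difference was 0.38, a share near the 8.97% of all tested genes called higher. There were 0 lower at an unadjusted edgeR p under 0.05, by DESeq2 or by limma voom. The gene that rose was Nfe2l2 (NRF2), the regulator of the antioxidant response, with 668, 260.0 and 445 CPM in islet libraries 2, 4 and 6, against 205, 179 and 146 CPM in fat libraries 2, 4 and 6 (log2 1.37 ± 0.36 SE, edgeR adjusted p = 0.0290). This call was lost without islet library 2 (log2 0.99, adjusted p = 0.0867) and without any 1 fat library (0.0947 to 0.129). Nfe2l1 (NRF1), which raises proteasome genes when proteasomes are inhibited, had 80.2, 87.7 and 144 CPM in islet libraries, against 122, 106 and 146 CPM in fat libraries (log2 -0.26 ± 0.29 SE, adjusted p = 0.575). The tissues overlapped for Nfe2l1 and not for Nfe2l2.

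The list of ubiquitin genes, shuttle factors and proteasome deubiquitinases had 22 tested genes, of which 4 rose and 0 fell, with a median log2 difference of 0.41, against 8.97% of all tested genes called higher. With the replicate block 3 were called higher, against 7.27% of all tested genes. By DESeq2 and limma voom 0 fell as well, and 1 was lower at an unadjusted edgeR p under 0.05. Ubqln1, a shuttle factor that brings ubiquitin-tagged proteins to the cap, had 364, 212 and 191 CPM in islet libraries 2, 4 and 6, against 63.7, 74.6 and 78.5 CPM in fat libraries 2, 4 and 6 (log2 1.82 ± 0.30 SE, edgeR adjusted p = 0.00394). Zfand2a (AIRAP), a stress-induced factor that binds the proteasome, had 431, 117 and 152 CPM in islet libraries, against 42.9, 29.6 and 40.2 CPM in fat libraries (log2 2.63 ± 0.49 SE, edgeR adjusted p = 0.00680). Both stood highest in islet library 2. Sem1, a small lid subunit outside the naming scheme of the Psm genes, had 119, 108 and 109 CPM in islet libraries, against 96.6, 147 and 125 CPM in fat libraries, and the groups overlapped (log2 -0.13 ± 0.24 SE, edgeR adjusted p = 0.751).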

How the data were processed

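The authors deposited raw counts: whole reads per gene, not normalised, for 6 libraries. Per the labels, 10 ng of total RNA per library went into a stranded total RNA kit for low input. Per the submitters' processing notes the tools were STAR, featureCounts and Subread 1.6.4 with GRCm38, while the annotation and strand setting were not given in the sources used here.

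Counts went through edgeR 4.0.16 in R 4.3.3 (filterByExpr by tissue, TMM, robust quasi-likelihood fit with tissue as the only term, islet minus fat). P values were adjusted by Benjamini-Hochberg over the 12152 genes tested, at a threshold of 0.05. Nothing in the labels says that libraries are separate animals, so p values measure the spread between these samples. CPM used TMM-adjusted library sizes, and levels per kilobase used exonic lengths from GENCODE M21, matched for 50376 identifiers (99.56%). On simulated data of 12152 genes for this comparison, 4% of 2-fold and 40% of 4-fold changes were recovered (100 each), with 4 unchanged genes called. No other genes were changed there, while 2361 genes (19.4%) were called in the data. The adjustment over genes was therefore stricter in the simulation, and these shares are not the recovery to be had in the data. Ratios of pairs were tested by exact permutation in scipy 1.17.1. Intervals and floors (3 counts) cover counting error only.

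The numbers 2, 4 and 6 are batch labels m2, m4 and m6, and the design text calls the tissues autologous, so the numbers were taken to pair the samples. Only the replicate block used this pairing. The main fit and the exact permutation tests treated the libraries as unpaired, and the smallest exact p of 0.1 holds for unpaired libraries. Deviations of same-numbered libraries correlated at 0.046, 0.063 and -0.008 across genes, and those of other numbers at -0.142 to 0.103.

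The comparison was repeated with DESeq2 1.42.0, with voom in limma 3.58.1, with RLE or upper-quartile factors, no filter, a filter of 1 CPM, the replicate block, protein-coding genes alone, each library left out, and islet libraries 2 and 4 left out. Leaving libraries out of the ratios was chosen after seeing the data. All members could be named, with the 2 genes of smallest adjusted p per direction and pathway list, Nfe2l1, Nfe2l2, Irf1, Nlrc5, Tap1, Sem1 and the sorted surface proteins; a gene that the rule takes is counted in its list and not reported here. The members and lists were chosen with earlier results of these data known. Promoter sequences are from RefSeq.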

Additional observations from a re-analysis of the deposited data

How the results depend on the processing

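With the replicate block 5 members were called higher, since Psmd10 lost its call, and the block changed no other call among members. Members called higher numbered 5 to 7 under the other scalings, tools and filters, 14 without islet libraries 2 and 4 (2 lower), and 1 to 11 with single libraries left out (0 lower in each). Over all tested genes, 1090 higher and 1271 lower became 2064 and 2916 without islet libraries 2 and 4, and 466 to 1649 and 593 to 2022 with single libraries left out. Pathway genes called higher numbered 18, against 15 with the replicate block, 29 without islet libraries 2 and 4 and 6 to 24 with single libraries left out. Pathway genes called lower numbered 0, against 1 with no filter, 2 without islet libraries 2 and 4, and 0 to 1 with single libraries left out. The log2 ratio difference of Psmb9 over Psmb6 ran from -0.486 to 0.822 with single libraries left out. The median of all genes moved by more than 0.1 only with no filter, to -0.30, and without islet libraries 2 and 4, to -0.20.

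Without islet libraries 2 and 4 the log2 difference changed sign in Psma4 (0.22), Psma6 (-0.47), Psma7 (0.052), Psmb1 (-0.37), Psmb2 (-0.26), Psmc6 (-0.12), Psmd13 (-0.18), Psmg1 (-0.74), Adgre1 (-0.16) and Nfe2l1 (0.12), none of them past the threshold in either fit. With single libraries left out, signs changed within Psma5 (-0.063 to 0.65), Psma7 (-0.26 to 0.11), Psmb2 (-0.16 to 0.36), Psmb4 (-0.0045 to 0.24), Psmc1 (-0.33 to 0.71), Psmd13 (-0.059 to 0.76), Psme4 (-0.053 to 0.20), Psmg1 (-0.22 to 0.31) and Nlrc5 (-0.074 to 1.07). Psmg1, fitted at 0.012, was at -0.030 with RLE, -0.0052 with upper-quartile factors, -0.034 with DESeq2, -0.034 with limma voom, -0.038 with no filter and -0.033 with protein-coding genes alone. The cause was not tested. The number of libraries limits the smallest change that can be called, and members under 10 CPM, such as Psmg1, Psmg2 and Psmg3, are limited by depth as well.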
